A study of Mus musculus with 4 samples.

Results

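Macrophage and myeloid genes were followed in Osr1+ cells of the mouse limb. The group holds 37 genes that macrophages and their relatives in the myeloid lineage are known to express. It was drawn up by function, but with earlier results of these data known. Of the 23284 gene symbols in the count files, 36 matched a member directly, and *Spi1* was matched as *Sfpi1*, its older symbol, so that all 37 members were measured. *Emr1* is the older symbol of *Adgre1*, which encodes F4/80.

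The cells were sorted by FACS for GFP from the limbs of C57BL/6J embryos at E13.5. GFP came from the *Osr1* GCE allele, an eGFP-IRES-CreERt2 knock-in at the *Osr1* locus that disrupts the gene. RNA was sequenced from 2 heterozygous GCE/+ embryos and 2 homozygous GCE/GCE embryos. Both genotypes thus carried the GCE allele, in 1 or both copies, and no wild-type sample was part of the comparison. The gate selected cells by GFP and against dead cells, which propidium iodide stains, and the labels name the sorted cells mesenchymal. The comparison asked which genes depend on *Osr1* in these cells.

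Macrophages populate the embryo from the yolk sac and fetal liver and settle in the limb mesenchyme, where they are known to clear dying cells. Their survival rests on the receptor Csf1r, and their gene programme on the ETS-family transcription factor PU.1, the product of *Spi1*. They recognise debris and antibody-coated particles through scavenger receptors and Fc receptors. The latter signal through small adaptors that carry an ITAM, a tyrosine motif that kinases phosphorylate.

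The core of the site that PU.1 is known to bind in myeloid promoters is GAGGAA, the PU box, whose GGAA is shared by other ETS factors. RefSeq promoter sequences (GRCm38.p6, 250 bases before to 50 after each start) were found for 28 of the 37 members. GAGGAA stood on either strand in at least 1 promoter of 19 of these 28 genes (67.9%), against 31.3% of all 27025 genes with such a sequence. Counted by promoter, it was in 61.1% of 36 member promoters and in 28.3% of all 32851. In the 100 bases before the start alone, it was in 11 of 28 members (39.3%) and in 11.2% of all genes. These shares are descriptions of letters in a window and were given no test. No promoter sequence was read here for *Spi1*, *Csf1r*, *Emr1*, *Cd86*, *Tyrobp*, *C1qa*, *Msr1*, *Lyve1* and *Cd14*. For 6 members the match began 30 to 40 bases before the start. Their 100 bases up to the start are shown, 5′ to 3′ on the gene's strand, because they come from each class of surface, complement and scavenger gene described further on and let the shared letters be compared. Capitals mark GAGGAA, or TTCCTC where it lies on the opposite strand.
Laptm5: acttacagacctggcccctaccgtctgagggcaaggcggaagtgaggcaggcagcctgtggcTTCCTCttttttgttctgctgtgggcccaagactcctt
Cd53: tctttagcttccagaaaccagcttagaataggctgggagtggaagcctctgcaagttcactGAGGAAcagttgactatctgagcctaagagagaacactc
Trem2: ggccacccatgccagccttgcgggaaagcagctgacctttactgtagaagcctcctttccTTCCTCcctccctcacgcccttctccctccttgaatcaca
C1qb: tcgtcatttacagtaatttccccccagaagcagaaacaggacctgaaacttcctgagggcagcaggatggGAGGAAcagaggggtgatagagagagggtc
Mrc1: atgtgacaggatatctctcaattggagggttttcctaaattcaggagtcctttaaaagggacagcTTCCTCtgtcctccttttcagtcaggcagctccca
Stab1: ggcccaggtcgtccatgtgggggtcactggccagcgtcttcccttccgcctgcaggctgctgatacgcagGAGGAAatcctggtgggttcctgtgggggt
They lie in GRCm38.p6 for *Laptm5* at chr4:130913216-130913315 (+ strand), *Cd53* at chr3:106790150-106790249 (- strand), *Trem2* at chr17:48346301-48346400 (+ strand), *C1qb* at chr4:136886201-136886300 (- strand), *Mrc1* at chr2:14229314-14229413 (+ strand) and *Stab1* at chr14:31168642-31168741 (- strand). The match began 38 bases before the start of *Laptm5*, 39 before that of *Cd53*, 40 before that of *Trem2*, 35 before that of *Mrc1*, and 30 before those of *C1qb* and *Stab1*. It also lay 55 bases before the start of *Fcgr1* and 66 before that of *F13a1*. In the remaining members with a match it lay nearer, 6 and 15 bases before the 2 starts of *Fcgr3*, 7 before *Aif1* and 8 before *Pf4*. The printed promoters were chosen by the place of the match, so their common place is no result.

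Each sample's fragment counts, as the authors deposited them, summed to between 52121596 and 61402140. Levels are given as CPM, each gene's counts relative to the TMM-scaled library size. A count of 3 in the smallest library amounts to 0.0574 CPM. *Osr1* had 81.9 and 79.1 CPM in GCE/+ against 11.9 and 13.9 in GCE/GCE, in the direction of the labels. Mesenchymal markers were abundant in all 4 samples, with *Col3a1* at 9550.0 and 8788 CPM in GCE/+ against 7718 and 6846 in GCE/GCE. *Xist*, which marks female embryos, reached 1142 CPM in GCE/GCE replicate 1 alone, and no other embryo exceeded 2.63 CPM. With 2 embryos per genotype an exact permutation test of 1 gene cannot go below p = 0.333. Differences were therefore tested by edgeR's quasi-likelihood test over 15645 genes, two-sided, with a Benjamini-Hochberg adjusted p under 0.1 as threshold.

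The myeloid genes were lower as a group in GCE/GCE cells. Together they had 867 and 902 CPM in GCE/+ against 557 and 405 in GCE/GCE, which made up 0.0873% and 0.0905% of all counts in GCE/+ and 0.0553% and 0.0404% in GCE/GCE cells. Of the 37 members, 23 fell past the threshold (62.2%), where 0.895% of all 15645 tested genes fell. None rose, either in edgeR or in DESeq2, where 0.888% and 1.83% of all genes did. At an unadjusted p under 0.05, no member was higher and 34 were lower, beside 4.92% of all genes. A log2 fold change under -0.5 was likewise seen in 34 members and in 5.12% of all genes. For 35 members the genotypes did not overlap and GCE/GCE was lower, which held for 19.1% of all tested genes. The exceptions were *Trem2* and *Cd163*. The median log2 fold change of the members was -0.90, a level of 0.535 of that in GCE/+ cells, beside 0.0032 for all tested genes. In RNA from pooled cells, fewer myeloid cells among those sorted and less of these transcripts per cell cannot be told apart.

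**Figure D1:**
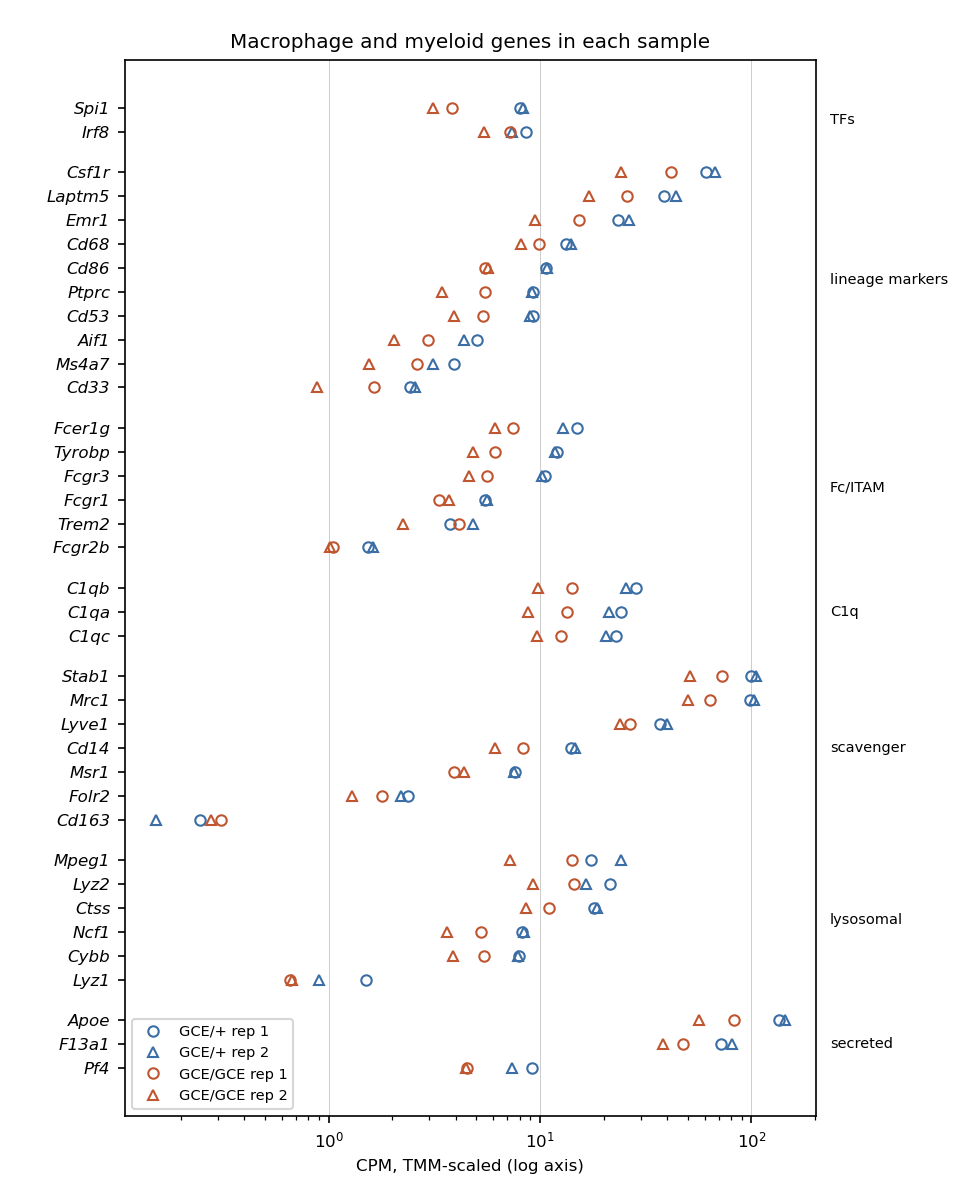
CPM of each of the 37 genes (log axis) in the 2 GCE/+ samples (blue) and the 2 GCE/GCE samples (orange), with circles for replicate 1 and triangles for replicate 2, grouped by role. In 35 genes both orange points lie to the left of both blue points; *Trem2* and *Cd163* are the exceptions.

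The 23 calls covered all roles but rested in part on single embryos. A fit without 1 sample leaves 1 embryo of that genotype, so its spread comes from the other genotype's pair, and the lone embryo is assumed to vary likewise. These fits, here and for the lists further on, show how far a count rests on 1 embryo and are no replicated support. The number of all genes called also changed between these fits, so a higher count in 1 of them is no result about the members. Without GCE/+ replicate 1, *C1qa*, *Cd53*, *Csf1r*, *Emr1*, *Msr1*, *Ncf1*, *Pf4*, *Ptprc* and *Stab1* lost the threshold. Without GCE/GCE replicate 1, the embryo with high *Xist*, the median log2 fold change of the members was -1.17. It was -0.69 without GCE/GCE replicate 2. DESeq2, the tool the study used, called 26 members lower (1.74% of the genes it tested), of which 22 were shared. With offsets for a trend of the fold changes on transcript length, 24 fell (1.15% of all genes). At an adjusted p under 0.05, 14 members fell (0.39% of all genes).

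*Spi1* showed the largest fall of all members. It had 8.03 and 8.28 CPM in GCE/+ replicates 1 and 2, against 3.84 and 3.10 in the GCE/GCE replicates, and it fell by 1.23 log2 units (SE 0.17, edgeR adjusted p = 0.0246). Its lowest GCE/+ sample was 2.09 times its highest GCE/GCE sample. *Irf8*, which encodes a transcription factor that acts beside PU.1 in macrophage development, had 8.61 and 7.36 CPM in GCE/+ against 7.22 and 5.41 in GCE/GCE. The groups were barely apart, with a log2 fold change of -0.34 (SE 0.18, edgeR adjusted p = 0.612). Its 95% interval ran from -0.75 to 0.07, above that of *Spi1*, which ran from -1.61 to -0.85.

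Of the 10 lineage and surface markers, 6 fell and the other 4 had negative log2 fold changes. *Csf1r*, the receptor for Csf1 and Il34, had 60.7 and 67.2 CPM in GCE/+ replicates 1 and 2, against 41.4 and 24.1 in the GCE/GCE replicates. It fell by 0.97 log2 units (SE 0.21, edgeR adjusted p = 0.0954), close to the threshold. DESeq2 gave *Csf1r* an adjusted p of 0.255, and leaving out GCE/+ replicate 1 or 2 gave 0.145 and 0.107 in edgeR. The F4/80 gene *Emr1* had 23.4 and 26.5 CPM in GCE/+ against 15.3 and 9.49 in GCE/GCE, and it fell by 1.01 log2 units (SE 0.20, edgeR adjusted p = 0.0712). *Laptm5*, which encodes a lysosomal membrane protein of blood cells and whose promoter is printed among the sequences, had 38.8 and 43.99 CPM in GCE/+ against 25.8 and 17.04 in GCE/GCE. It fell by 0.95 log2 units (SE 0.18, edgeR adjusted p = 0.0626). In all 3 genes GCE/GCE replicate 2 was the lowest sample by a wide margin.

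The pan-leukocyte phosphatase gene *Ptprc* (CD45) had 9.23 and 9.12 CPM in GCE/+ against 5.51 and 3.45 in GCE/GCE, and it fell by 1.04 log2 units (SE 0.21, edgeR adjusted p = 0.0814). The tetraspanin gene *Cd53* had 9.25 and 8.97 CPM in GCE/+ against 5.36 and 3.90 in GCE/GCE and fell by 0.98 log2 units (SE 0.18, edgeR adjusted p = 0.0553). *Cd86*, which encodes a costimulatory ligand for T cells, had 10.7 and 10.8 CPM in GCE/+ against 5.48 and 5.65 in GCE/GCE and fell by 0.95 log2 units (SE 0.13, edgeR adjusted p = 0.0255). Its 2 embryos of each genotype lay almost on top of each other, unlike those of *Csf1r* and *Emr1*. The endosomal glycoprotein gene *Cd68* had 13.3 and 13.96 CPM in GCE/+ against 9.85 and 8.17 in GCE/GCE, with a log2 fold change of -0.59 (SE 0.13, edgeR adjusted p = 0.104). DESeq2 called *Cd68* lower (adjusted p = 0.0260). *Aif1*, which encodes the calcium-binding protein Iba1, had a log2 fold change of -0.91 (SE 0.22, edgeR adjusted p = 0.126). DESeq2 called *Aif1* lower as well (adjusted p = 0.0449). *Cd33*, a sialic acid-binding receptor gene, was at 0.882 to 2.56 CPM with a log2 fold change of -0.98 (SE 0.30, edgeR adjusted p = 0.235). *Ms4a7* was at 1.55 to 3.91 CPM with a log2 fold change of -0.76 (SE 0.27, edgeR adjusted p = 0.342).

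Among the Fc receptors and their partners, the adaptors and *Fcgr3* fell. The other receptors missed the threshold with negative log2 fold changes, and their difference from the adaptors was not tested. *Tyrobp*, which encodes the ITAM adaptor DAP12, had 12.02 and 11.8 CPM in GCE/+ replicates 1 and 2, against 6.10 and 4.82 in the GCE/GCE replicates, and it fell by 1.13 log2 units (SE 0.15, edgeR adjusted p = 0.0242). *Fcer1g*, the common gamma chain of Fc receptors and likewise an ITAM adaptor, had 14.9 and 12.9 CPM in GCE/+ against 7.48 and 6.11 in GCE/GCE and fell by 1.03 log2 units (SE 0.15, edgeR adjusted p = 0.0288). *Fcgr3*, an activating receptor for IgG that needs this chain, had 10.6 and 10.3 CPM in GCE/+ against 5.62 and 4.59 in GCE/GCE and fell by 1.03 log2 units (SE 0.15, edgeR adjusted p = 0.0297). The 3 genes fell by similar amounts, and in each the lowest GCE/+ sample was at least 1.72 times the highest GCE/GCE sample. The high-affinity receptor gene *Fcgr1* had a log2 fold change of -0.66 (SE 0.17, edgeR adjusted p = 0.140), and *Fcgr2b*, the inhibitory receptor gene, had a log2 fold change of -0.62 (SE 0.24, edgeR adjusted p = 0.383). Both were low, at 3.32 to 5.64 and 1.01 to 1.63 CPM, and their samples did not overlap between the genotypes. *Fcgr2b* and *Fcgr3* lie near each other on chromosome 1 and are similar in sequence, and reads that fit both leave their counts uncertain. *Trem2*, a lipid receptor gene whose product signals through DAP12, had 3.74 and 4.82 CPM in GCE/+ against 4.15 and 2.24 in GCE/GCE. GCE/GCE replicate 1 lay between the GCE/+ samples, and *Trem2* had a log2 fold change of -0.42 (SE 0.29, edgeR adjusted p = 0.755). *Trem2* passed the threshold (edgeR adjusted p = 0.0407) only when GCE/GCE replicate 1 was left out, a fit with 1 GCE/GCE embryo whose spread comes from the GCE/+ pair.

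All 3 chains of C1q, the recognition unit of the classical complement pathway, fell. Their genes stand next to each other on chromosome 4 of GRCm38, with *C1qb* from 136880129 to 136886187, *C1qc* from 136889804 to 136893065 and *C1qa* from 136895917 to 136898803, all on the minus strand. *C1qb* had 28.5 and 25.6 CPM in GCE/+ replicates 1 and 2, against 14.2 and 9.79 in the GCE/GCE replicates, and it fell by 1.17 log2 units (SE 0.17, edgeR adjusted p = 0.0288). *C1qa* had 24.3 and 21.1 CPM in GCE/+ against 13.4 and 8.82 in GCE/GCE and fell by 1.03 log2 units (SE 0.19, edgeR adjusted p = 0.0535). *C1qc* had 22.96 and 20.6 CPM in GCE/+ against 12.6 and 9.70 in GCE/GCE and fell by 0.97 log2 units (SE 0.14, edgeR adjusted p = 0.0310). In each chain GCE/GCE replicate 2 was the lowest sample. Without GCE/+ replicate 1, *C1qa* had an adjusted p of 0.129.

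Of the 7 scavenger and endocytic receptor genes, 5 fell. *Mrc1*, which encodes the mannose receptor CD206, had 98.1 and 103 CPM in GCE/+ replicates 1 and 2, against 63.4 and 50.2 in the GCE/GCE replicates. It fell by 0.82 log2 units (SE 0.11, edgeR adjusted p = 0.0242). *Stab1*, a receptor gene for modified lipoproteins and debris, had 99.7 and 105 CPM in GCE/+ against 72.4 and 51.2 in GCE/GCE and fell by 0.73 log2 units (SE 0.14, edgeR adjusted p = 0.0700). *Lyve1*, a hyaluronan receptor gene, had 37.00 and 39.8 CPM in GCE/+ against 26.6 and 23.9 in GCE/GCE and fell by 0.61 log2 units (SE 0.11, edgeR adjusted p = 0.0494). These 3 genes are also used by lymphatic or sinusoidal endothelium. Of 12 general endothelial markers, none passed the edgeR threshold and 1 was lower in DESeq2. An unadjusted p under 0.05 was seen in 7, all of them lower except *Erg*, which had a log2 fold change of 0.35. Of all tested genes, 4.92% were lower at that level. The 12 markers had a median log2 fold change of -0.41, and their summed level was 155 and 127 CPM in GCE/+ against 128 and 111 in GCE/GCE. The part of endothelial transcripts in the falls of *Mrc1*, *Stab1* and *Lyve1* was not tested.

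*Cd14*, the coreceptor for lipopolysaccharide, had 14.03 and 14.7 CPM in GCE/+ against 8.29 and 6.09 in GCE/GCE and fell by 1.00 log2 units (SE 0.16, edgeR adjusted p = 0.0363). *Msr1*, the class A scavenger receptor gene, had 7.65 and 7.50 CPM in GCE/+ against 3.93 and 4.36 in GCE/GCE and fell by 0.87 log2 units (SE 0.15, edgeR adjusted p = 0.0494). As for *Cd86*, its GCE/GCE samples were alike. *Folr2*, a folate receptor gene of tissue macrophages, was at 1.29 to 2.38 CPM with a log2 fold change of -0.57 (SE 0.24, edgeR adjusted p = 0.452). *Cd163*, the haemoglobin scavenger receptor gene, was the only member with a positive log2 fold change. It had only 15 and 8 counts in GCE/+ and 18 and 17 in GCE/GCE cells, or 0.153 to 0.310 CPM. Its log2 fold change was 0.53 with a 95% interval from -0.44 to 1.51, so a difference in either direction was not detectable at this depth.

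The lysosomal and antimicrobial genes were all lower in both GCE/GCE samples, and 2 of 6 passed the threshold. *Ctss*, which encodes the lysosomal protease cathepsin S, had 18.00 and 18.6 CPM in GCE/+ replicates 1 and 2, against 11.01 and 8.58 in the GCE/GCE replicates and fell by 0.90 log2 units (SE 0.14, edgeR adjusted p = 0.0343). *Ncf1*, the p47 organizer subunit of the NADPH oxidase, had 8.18 and 8.41 CPM in GCE/+ against 5.25 and 3.63 in GCE/GCE and fell by 0.90 log2 units (SE 0.19, edgeR adjusted p = 0.0899). Without GCE/GCE replicate 2, the adjusted p of *Ncf1* was 0.164. *Cybb*, the catalytic subunit of that oxidase, had 7.95 and 7.90 CPM in GCE/+ against 5.43 and 3.87 in GCE/GCE, with a log2 fold change of -0.77 (SE 0.19, edgeR adjusted p = 0.118). *Cybb* passed in DESeq2 (adjusted p = 0.0284). *Mpeg1*, which encodes the pore-forming perforin-2, had 17.4 and 24.2 CPM in GCE/+ against 14.2 and 7.24 in GCE/GCE. Its embryos were far apart in both genotypes. It had a log2 fold change of -0.96 (SE 0.28, edgeR adjusted p = 0.210), and its log2 fold change was -1.53 without GCE/GCE replicate 1 and -0.56 without GCE/GCE replicate 2. Either value passed the threshold, but rests on a single GCE/GCE embryo, while the 2 of them differed by 0.97 log2 units. The lysozyme gene *Lyz2* had 21.4 and 16.5 CPM in GCE/+ against 14.5 and 9.30 in GCE/GCE, with a log2 fold change of -0.68 (SE 0.21, edgeR adjusted p = 0.241), and passed in DESeq2 (adjusted p = 0.0464). Its neighbour and close paralog *Lyz1* was at 0.655 to 1.51 CPM with a log2 fold change of -0.87 (SE 0.32, edgeR adjusted p = 0.360), and counts of this pair are uncertain where reads fit both genes.

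The 3 genes for secreted proteins fell. *Apoe*, the lipid carrier apolipoprotein E, was the most abundant member, with 135 and 144 CPM in GCE/+ replicates 1 and 2, against 82.4 and 56.4 in the GCE/GCE replicates. It fell by 1.01 log2 units (SE 0.16, edgeR adjusted p = 0.0331). Many cell types make *Apoe*, and its fall was of the size of that of *C1qa* or *Emr1*. *F13a1*, the A chain of coagulation factor XIII and a marker of tissue macrophages, had 72.1 and 80.7 CPM in GCE/+ against 47.4 and 38.3 in GCE/GCE and fell by 0.83 log2 units (SE 0.12, edgeR adjusted p = 0.0256). *Pf4*, a chemokine of platelets that embryonic macrophages also express, had 9.18 and 7.34 CPM in GCE/+ against 4.53 and 4.48 in GCE/GCE and fell by 0.88 log2 units (SE 0.16, edgeR adjusted p = 0.0614). Of 8 megakaryocyte and platelet markers, 5 had enough counts to be tested. None of these 5 passed in edgeR or DESeq2, none had an unadjusted p under 0.05, and their median log2 fold change was 0.19. *Gp6* was at 0 counts in 3 of 4 samples, and the list summed to 5.88 to 7.15 CPM.

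**Figure D2:**
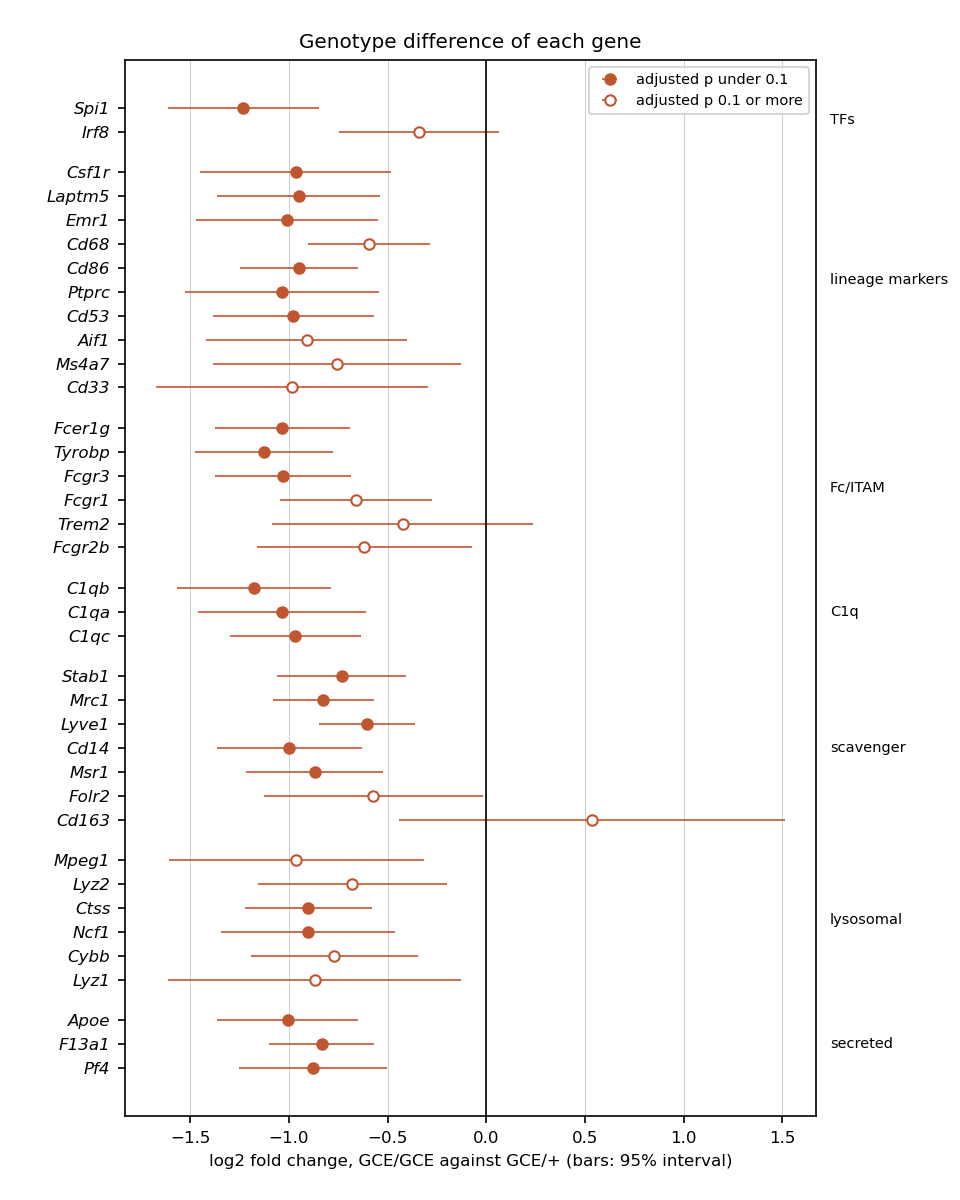
Log2 fold change of each gene, GCE/GCE against GCE/+, with its 95% interval from edgeR's fit; filled points passed an adjusted p of 0.1. The 23 filled points lie between -1.23 and -0.61, and the intervals of *Irf8*, *Trem2* and *Cd163* include 0.

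Embryos of 1 genotype differed as well, and the myeloid genes were mostly lower in the second of the GCE/GCE embryos. Each pair was compared by the log2 ratio of replicate 2 to replicate 1 with a 95% Clopper-Pearson interval, which covers counting error only, since 1 embryo against 1 has no replicate check. In GCE/+ embryos the median ratio over the 37 genes was 0.02, with 18 negative and 19 positive values. In GCE/GCE embryos it was -0.44, with 33 negative values. Over all tested genes the median ratio was 0.0007 in GCE/GCE embryos, and 49.9% of the ratios were negative. GCE/GCE replicate 1 had a median of 62.1% of the GCE/+ mean and GCE/GCE replicate 2 of 44.6%. Both were below the GCE/+ mean for 36 of 37 genes, *Cd163* being the exception in each.

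Members differed in this split. *Mpeg1* had -0.97 (-1.14 to -0.80) between the GCE/GCE embryos and 0.48 (0.36 to 0.60) between the GCE/+ embryos, in opposite directions. For *Csf1r* the GCE/GCE ratio was -0.78 (-0.88 to -0.69) and the GCE/+ ratio 0.15 (0.08 to 0.22). For *Trem2* they were -0.89 (-1.20 to -0.58) and 0.36 (0.10 to 0.63). In contrast, *Cd86* had 0.05 (-0.18 to 0.27) between the GCE/GCE embryos, *Msr1* had 0.15 (-0.11 to 0.41), *Fcgr1* had 0.16 (-0.12 to 0.45) and *Pf4* had -0.02 (-0.27 to 0.23), all with intervals that include 0. The 3 C1q chains were lower in replicate 2 in both genotypes, with GCE/+ ratios from -0.20 to -0.16 and GCE/GCE ratios from -0.60 to -0.37. GCE/GCE replicate 1 was the embryo with high *Xist*, and sex cannot be told apart from the embryo here.

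**Figure D3:**
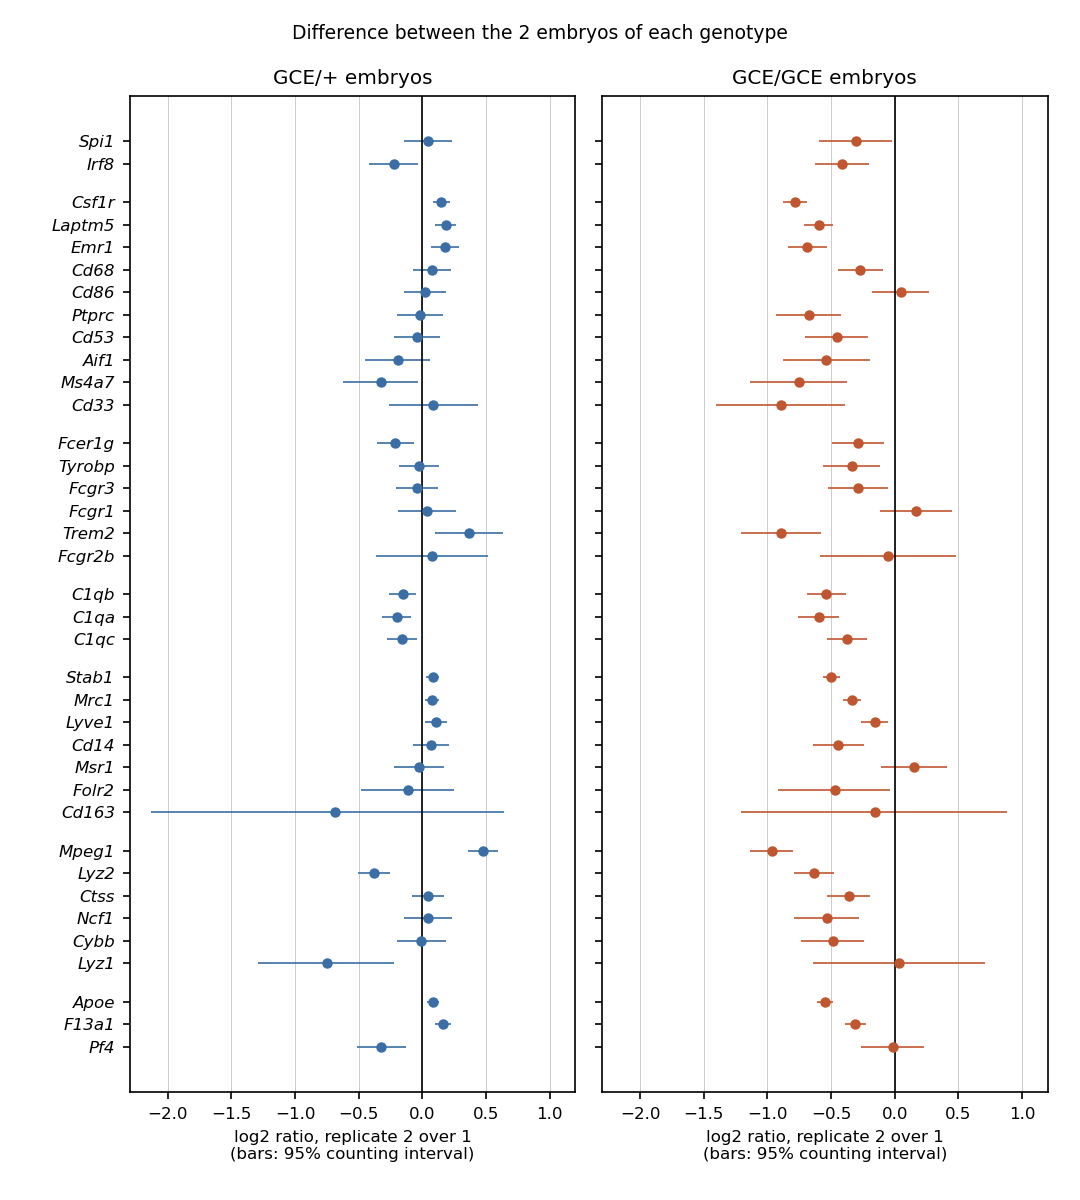
Log2 ratio of replicate 2 to replicate 1 for each gene, in GCE/+ embryos (left) and GCE/GCE embryos (right), with 95% counting intervals. The GCE/+ ratios scatter around 0 with a median of 0.02, while 33 of the 37 GCE/GCE ratios are negative.

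Set against each other, the members largely kept their proportions. Each gene's share of the summed counts of all 37 was taken in every sample. *Apoe* had 15.6% and 15.9% in GCE/+ and 14.8% and 13.9% in GCE/GCE cells, *Stab1* had 11.5% and 11.7% in GCE/+ and 12.99% and 12.6% in GCE/GCE cells, and *Mrc1* had 11.3% and 11.4% in GCE/+ and 11.4% and 12.4% in GCE/GCE cells. These 3 genes thus led the counts in each genotype. Between the genotypes, the mean share changed by no more than 1.25 times for 33 genes. The other 4 were *Spi1*, whose share had a log2 ratio of -0.34, and *Trem2*, *Irf8* and *Cd163*, with 0.43, 0.54 and 1.45. Only *Cd163*, with its few counts, changed by more than 1.5 times. *Irf8* made up 0.992% and 0.816% in GCE/+ and 1.30% and 1.33% in GCE/GCE cells. The shares are descriptions, and their differences between the genotypes were not tested.

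Levels were compared between genes after division by length, as TPM, with the longest GENCODE transcript of each gene as its length. In GCE/+ replicates 1 and 2, *Apoe* led with 285 and 318 TPM and ranked 483 among all genes. It was followed by *C1qb* with 77.6 and 73.3 TPM, *C1qa* with 69.1 and 63.2 TPM, *Fcer1g* with 64.7 and 58.7 TPM and *Tyrobp* with 59.6 and 61.6 TPM. *F13a1*, *Mrc1* and *C1qc* came next, and from *C1qa* to *C1qc* the ranges of neighbouring genes over the GCE/+ embryos overlapped. *Csf1r* had 38.2 and 44.6 TPM, *Spi1* 11.7 and 12.7 TPM and *Ptprc* 4.76 and 4.95 TPM. *Cd33* with 1.25 and 1.39 TPM and *Cd163* with 0.164 and 0.107 TPM were the lowest. Of the 36 neighbouring pairs in this order, 15 had values in the GCE/+ embryos that did not overlap. The order by TPM differed from that by CPM, since short transcripts such as those of *Tyrobp* and *Fcer1g* moved up and the long one of *Stab1* moved down to rank 15.

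Genes outside the group that act with its members were read from the same fit. Of 15 genes for ITAM and Fc receptor signalling, 5 fell, none rose and 13 had negative log2 fold changes, with a median of -0.80. *Ptpn6*, the phosphatase SHP-1, had 10.7 and 10.3 CPM in GCE/+ against 5.99 and 4.93 in GCE/GCE and fell by 0.95 log2 units (SE 0.15, edgeR adjusted p = 0.0343). *Lcp2*, the scaffold SLP-76, fell by 0.95 log2 units (SE 0.19, edgeR adjusted p = 0.0712), and *Clec7a*, the beta-glucan receptor Dectin-1, fell by 1.17 log2 units (SE 0.25, edgeR adjusted p = 0.0910). *Sirpa*, the inhibitory receptor for CD47, and the kinase gene *Lyn* completed the 5. *Sirpa* fell by 0.48 log2 units (SE 0.10, edgeR adjusted p = 0.0898), and *Lyn* fell by 0.74 log2 units (SE 0.16, edgeR adjusted p = 0.0930). The kinase gene *Syk* had a log2 fold change of -0.57 (SE 0.17, edgeR adjusted p = 0.226). The count of 5 was not stable when 1 sample was left out, and it moved down as well as up.

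Among further NADPH oxidase subunits, *Rac2*, a small GTPase, had 11.4 and 10.7 CPM in GCE/+ against 6.20 and 4.21 in GCE/GCE and fell by 1.09 log2 units (SE 0.19, edgeR adjusted p = 0.0479). It did not pass without GCE/+ replicate 1. *Cyba*, which many cell types express, had a log2 fold change of -0.37 (SE 0.11, edgeR adjusted p = 0.204). Among 9 tested complement partners and receptors, the anaphylatoxin receptor genes *C5ar1* and *C3ar1* and the integrin gene *Itgam* (CD11b) fell. *C5ar1* had 16.8 and 18.1 CPM in GCE/+ against 7.68 and 5.59 in GCE/GCE and fell by 1.39 log2 units (SE 0.16, edgeR adjusted p = 0.0184), a larger fall than that of any member. *C3ar1* had 22.6 and 27.5 CPM in GCE/+ against 13.45 and 10.03 in GCE/GCE and fell by 1.09 log2 units (SE 0.16, edgeR adjusted p = 0.0306). *Itgam* fell by 1.27 log2 units (SE 0.22, edgeR adjusted p = 0.0441). The complement component gene *C2* had a log2 fold change of -0.28 (SE 0.27, edgeR adjusted p = 0.861).

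Of 49 other macrophage and leukocyte genes, 15 fell, with a median log2 fold change of -0.82. *Plek*, the protein kinase C substrate pleckstrin, had 60.4 and 68.6 CPM in GCE/+ against 35.7 and 32.9 in GCE/GCE and fell by 0.91 log2 units (SE 0.10, edgeR adjusted p = 0.0140). *Hpgds*, the haematopoietic prostaglandin D synthase, fell by 1.10 log2 units (SE 0.14, edgeR adjusted p = 0.0232), *Hcls1*, a cortactin-like protein of blood cells, fell by 1.06 log2 units (SE 0.17, edgeR adjusted p = 0.0343), and *Cd180*, a Toll-like receptor homologue, fell by 0.90 log2 units (SE 0.14, edgeR adjusted p = 0.0343). The genes of this list with the highest mean CPM were *Axl*, *Tmem119* and *Plek*, of which mesenchymal cells also express the first and the second. *Axl* had 316 and 306 CPM in GCE/+ against 296 and 286 in GCE/GCE and a log2 fold change of -0.10 (SE 0.09, edgeR adjusted p = 0.850), while *Tmem119* had a log2 fold change of -0.11 (SE 0.09, edgeR adjusted p = 0.829). The count of 15 likewise moved down as well as up when 1 sample was left out.

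*Csf1*, the main ligand of Csf1r, had 59.3 and 56.4 CPM in GCE/+ against 55.6 and 44.5 in GCE/GCE, with a log2 fold change of -0.21 (SE 0.11, edgeR adjusted p = 0.630). The second ligand gene, *Il34*, was at 0.229 to 0.517 CPM with a log2 fold change of 0.53 (SE 0.40, edgeR adjusted p = 0.782). Neither had an unadjusted p under 0.05, and neither passed in DESeq2. All 15 lysosomal genes that most cells use had negative log2 fold changes with a median of -0.24, and 1 fell, the endopeptidase gene *Lgmn*, which fell by 0.64 log2 units (SE 0.09, edgeR adjusted p = 0.0307). *Psap* had 593 and 586 CPM in GCE/+ against 548 and 506 in GCE/GCE and a log2 fold change of -0.16 (SE 0.10, edgeR adjusted p = 0.681). *Ctsb*, cathepsin B, had a log2 fold change of -0.45 (SE 0.11, edgeR adjusted p = 0.119), and *Cd63* had a log2 fold change of -0.20 (SE 0.11, edgeR adjusted p = 0.671). The count of 1 was higher without GCE/+ replicate 2, and likewise without GCE/GCE replicate 1.

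Markers of other cell types that the gate could hold were read from the same fit. Of 13 erythroid markers, 9 were tested. None passed in edgeR or DESeq2 or had an unadjusted p under 0.05, their median was 0.17, and *Hba-a1* was at 0 counts in every sample. The embryonic globin gene *Hbb-y* had 449 and 152 CPM in GCE/+ against 298 and 269 in GCE/GCE, so it differed most between the GCE/+ embryos. Some erythroid markers were called lower without GCE/+ replicate 2. Of 15 neutrophil, mast cell and lymphocyte markers, 7 were tested, none passed in edgeR or DESeq2 or had an unadjusted p under 0.05, and 6 were at 0 in at least 1 sample. The list summed to 16.2 and 8.57 CPM in GCE/+ against 12.4 and 9.88 in GCE/GCE, with the mast cell gene *Cpa3* at 9.16 and 3.40 CPM in GCE/+ against 5.53 and 4.51 in GCE/GCE. Without GCE/+ replicate 2, this list did hold a marker called lower. Epithelial markers (6 tested) and Schwann cell and neural markers (7 tested) held no gene past the threshold in edgeR or DESeq2. Of the epithelial markers, 2 had an unadjusted p under 0.05, *Krt14* being lower and *Trp63* higher. None of the Schwann cell and neural markers did, although some of them were called lower without GCE/GCE replicate 1. Muscle markers had a median of 0.15, with none of 9 past the edgeR threshold and 1 higher in DESeq2. An unadjusted p under 0.05 was seen in 2 of them, *Myh3* and *Ttn*, and both were higher. Among the 12 limb mesenchyme markers, 1 was lower, namely *Osr1* itself, and the median was -0.14. DESeq2 called 4 of these lower, and the edgeR count rose without GCE/+ replicate 2 and without either GCE/GCE replicate. The cell types other than macrophages that were examined thus had medians from -0.41 to 0.19, beside -0.90 for the 37 members. Neutrophils and mast cells are myeloid too, and the list with their markers had a median of -0.08 over its 7 tested genes. For endothelial markers, the count of 0 rose without GCE/GCE replicate 1 and without GCE/+ replicate 2, fits that each leave a single embryo of 1 genotype.

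**Figure D4:**
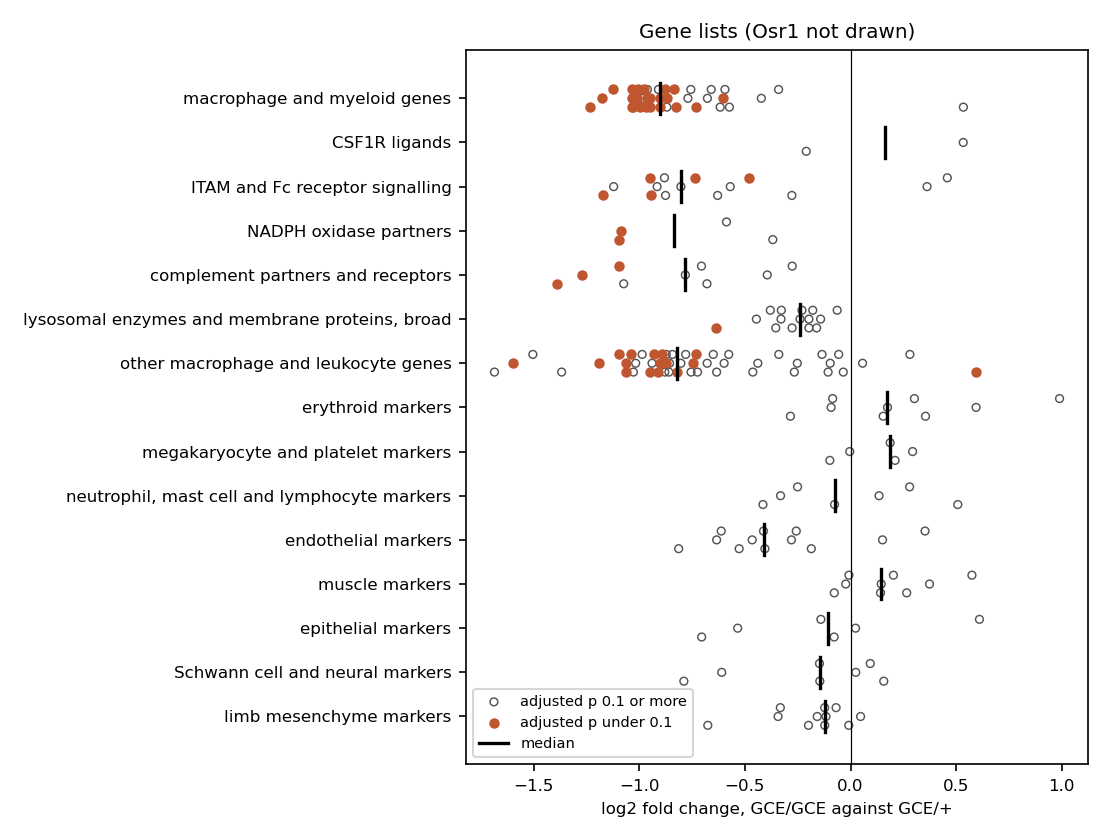
Log2 fold change, GCE/GCE against GCE/+, of the tested genes of each list (circles, filled where the adjusted p was under 0.1) with the list's median (black bar); *Osr1* is left out of the mesenchyme markers. The myeloid genes and the 4 lists of genes that act with them have medians from -0.90 to -0.78, and the CSF1R ligands, the broad lysosomal genes and the markers of other cell types lie nearer to 0.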

How the data were processed

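Aligned fragments of 50-bp paired-end reads were deposited by the authors as raw counts per gene symbol, made with TopHat2 on mm9 (UCSC gene model) and HTSeq in intersection-strict mode. No normalization was applied to these counts, and tool versions are not given in the sources used here. Sample titles gave each genotype and replicate number. The 4 samples came from 4 embryos.

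Genes were filtered with filterByExpr (15645 kept), normalized by TMM and tested with edgeR 4.0.16 in R 4.3.3 (glmQLFit, glmQLFTest, GCE/GCE against GCE/+, no covariate). P-values were adjusted by the Benjamini-Hochberg method over all tested genes, with the study's threshold of 0.1. SE was derived from the F statistic. The fit had 2 residual and 6.34 prior degrees of freedom. The test was checked on simulated counts. All 37 members passed the filter, and 36 had at least 10 counts in every sample. The members and lists were chosen with earlier results of these data known.

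Alternatives were DESeq2 1.42.0, RLE size factors, no filter, at least 10 counts in every sample, an adjusted p under 0.05, the replicate number as a block, leaving out each sample, and offsets for a trend on transcript length, the last added after seeing the data. Lengths and coordinates came from GENCODE M21 (GRCm38) by symbol (97.9% matched); the authors used mm9, and nothing was converted. Promoters came from RefSeq. Every member was named. Genes of the lists were named from the up to 4 with the smallest p past the threshold and the up to 3 with the highest CPM; for markers of other cell types mostly counts and sums are given, and markers at 0 or singled out there were named after their values were seen. Promoters were chosen for print by the place of the match. *Ahsp* was not matched in the count files. Values of some list genes that passed the threshold are not reported here. Intervals on counts and the limit of 3 counts cover counting error only.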

Additional observations from a re-analysis of the deposited data

How the results depend on the processing

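The fall of the myeloid genes held in direction under every alternative run, and no member changed sign. Between 23 and 26 members fell under DESeq2, RLE size factors, no filter on low counts, at least 10 counts in every sample, transcript length offsets (24) and the replicate block (24). At an adjusted p under 0.05, 14 fell. With each sample left out in turn, which leaves 1 genotype with a single embryo, 14 to 31 fell, the median log2 fold change ran from -1.17 (without GCE/GCE replicate 1) to -0.69 (without GCE/GCE replicate 2), and 35 or 36 members had every GCE/GCE value below every GCE/+ value. The share of all genes separated in this way was not taken with a sample left out. Fewer samples separate more easily, so the 35 or 36 members cannot be set against the 19.1% of all genes found with every sample. Both genotypes have embryos numbered 1 and 2 in the labels. Deviations of same-numbered samples had a correlation of -0.00403 over 11180 genes, so the numbers were not taken as pairs. The block gave 280 genes differing, beside 279 without it, and *Lyz2* as a further member (edgeR adjusted p = 0.0718), while all 23 calls kept the threshold.

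Over all genes, the count of 279 (140 lower, 139 higher) became 505 (246, 259) with DESeq2, 425 (218 lower) without the filter and 122 (61, 61) at an adjusted p under 0.05. Leaving out 1 sample gave 197 to 984 (81 to 440 lower, 116 to 662 higher). For ITAM and Fc receptor signalling, 8 genes fell with DESeq2 and without the filter, 3 with the replicate block, 1 at 0.05 and 1 to 10 with a sample left out. For lysosomal genes of many cell types, 3 fell with DESeq2 and without the filter, 2 with length offsets and 1 to 5 with a sample left out. For limb mesenchyme markers the numbers were 4 with DESeq2, 2 without the filter, 2 with the replicate block and 1 to 4 with a sample left out. At 0.05, 1 NADPH oxidase partner and 8 other macrophage genes fell. With a sample left out these were 0 to 3 and 10 to 30, and there were 0 to 5 endothelial markers (1 with DESeq2), 0 to 2 erythroid, 0 to 2 Schwann cell and neural, and 0 to 1 neutrophil, mast cell and lymphocyte markers. The cause of these shifts was not tested. CPM by total counts left the median ratios between embryos at 0.02 and -0.44. A sum without *Apoe* left 1 member share changed by over 1.5 times. The 14 members that missed the threshold had a median of 4.49 CPM in GCE/+ cells, against 18.3 CPM for the 23 that fell.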
